A study of Mus musculus with 36 samples.

Results

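The zinc finger genes of chromosomes 2, 4 and 12 were followed in the H3K9me3 profile of mouse liver. Members were all bins of the 6 deposited comparison tables that lay on those chromosomes and whose annotated gene symbol began with Zfp and a number, Zscan or Zkscan. A bin is a stretch of at most 501 bp of an H3K9me3 peak. The tables keep 1 bin of each peak, by a choice that is not given in the sources used here and that can fall on another bin in another table, and 68.4% of female and 68.3% of male members in the age tables came from peaks longer than 1 bin. The symbol of a bin is the gene with the nearest start site in the authors' annotation, so that a bin need not lie inside the gene it is named for. Control females at the 2 ages were compared over 120683 bins, of which 247 were members, and control males over 148133 bins, of which 303 were members. The comparisons of maternal obesity (MO) held 290 members of 140214 bins in females and 334 of 159357 in males at 3 weeks, and 236 of 116257 in females and 202 of 102145 in males at 8 weeks. Over all tables the members carried 43 gene symbols, 24 on chromosome 2, 14 on chromosome 4 and 5 on chromosome 12, and 37 of them had a bin in every table. They were named at 855 distinct positions.

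Livers came from male and female offspring of dams given a Western-style diet (MO) or a control chow diet for 4 weeks before mating, through pregnancy and through lactation. Offspring were killed at 3 weeks, before weaning, or at 8 weeks, after 5 weeks in which both groups ate regular chow. Each of the 8 groups of sex, age and maternal diet had 4 livers, which gave 32 ChIP libraries, and 4 input libraries made up the 36 samples. All offspring were floxed littermate controls from a Reg3g fl/fl colony on a C57BL/6J background, and were Reg3g fl/+ or Reg3g fl/fl, controls and MO offspring alike, and the sources used here do not say which litter each liver came from. The tables hold 1 result per bin and comparison, with no value for a single library, so the depth of each library and the spread among the 4 livers of a group are not known here. For each bin they list a log2 change, an average level over the libraries compared in log2 CPM (reads per library size), a p-value, and the FDR, the false discovery rate left after adjustment for the number of bins. Each p-value is from the authors' exact test of a difference between 2 groups of 4 livers. Liver was profiled whole, so fewer cells carrying the mark and less mark per cell cannot be told apart. As for the tissue, 6 or 7 of 10 hepatocyte genes had a bin in each table, and with age none of their 33 bins was called in females and 2 of 48 in males (4.17%, against 4.41% of all bins), a bin named for Cps1 that rose by 1.01 on the log2 scale and one named for Apob that fell by 1.79.

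Most mammalian zinc finger genes of this kind encode arrays of C2H2 fingers, short loops held by a zinc ion that read DNA. Many also carry a KRAB domain, which recruits TRIM28 and the H3K9 methyltransferase SETDB1 to the bound site, often an old transposon, and leads to its silencing. Many genes of the family lie in clusters that arose by duplication, and their own finger-coding exons are known to carry H3K9me3. Of the member genes here, 6 and 3 lay in the 2 clusters described below, and the others were single. In GENCODE, 31 of the 43 genes encoded 5 or more C2H2 fingers, with a maximum of 33 in Zfp462. Zfp36l1, whose product binds RNA through fingers of another type, and Zfp839 encoded none, and Zfp133-ps is a pseudogene.

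The sequences at the centre of the age results are shown in 2 sets, which are not exclusive. The first set is finger-coding exon sequence with a linker. Fingers are joined by a linker peptide, TGEKP, and the 15 bases that can encode it, with any codons and on either strand, are in capitals in the coding windows of 150 bases shown first, each from a bin of the male table and on the coding strand (GRCm38). They are shown because 4 of the 5 rose in control males. The windows are chr2:165380694-165380843 (minus strand) for Zfp334, chr2:165352414-165352563 (minus) for Zfp663, chr2:127577328-127577477 (minus) for Zfp661, chr4:136290736-136290885 (plus) for Zfp46 and chr4:120930896-120931045 (minus) for Zfp69, the one that was not called.
Zfp334: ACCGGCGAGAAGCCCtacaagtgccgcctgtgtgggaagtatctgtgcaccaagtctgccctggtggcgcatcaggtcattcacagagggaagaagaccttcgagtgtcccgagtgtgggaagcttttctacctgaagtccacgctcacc
Zfp663: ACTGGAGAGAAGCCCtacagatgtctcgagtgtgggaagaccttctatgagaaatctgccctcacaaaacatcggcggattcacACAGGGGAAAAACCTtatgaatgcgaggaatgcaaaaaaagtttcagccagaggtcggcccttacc
Zfp661: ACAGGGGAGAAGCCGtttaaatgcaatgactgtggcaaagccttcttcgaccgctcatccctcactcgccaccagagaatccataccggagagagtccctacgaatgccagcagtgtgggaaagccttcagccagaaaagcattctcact
Zfp46: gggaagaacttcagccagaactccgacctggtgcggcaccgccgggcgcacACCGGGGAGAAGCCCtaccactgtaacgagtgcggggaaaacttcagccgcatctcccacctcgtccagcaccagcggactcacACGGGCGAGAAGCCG
Zfp69: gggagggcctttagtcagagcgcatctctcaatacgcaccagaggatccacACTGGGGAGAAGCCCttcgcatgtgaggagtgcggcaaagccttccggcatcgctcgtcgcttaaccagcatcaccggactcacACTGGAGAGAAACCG

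The second set marks CG. The windows of 150 bases with the most CG, in capitals, are shown for the other bins called in both sexes and for Zfp64, which held the smallest FDR of all members in males. The bin with the most CG, 41 of them, lay in the transcribed processed pseudogene Gm14121 and was named for Zfp345 as the nearest gene (chr2:150500531-150500680, minus strand). A second bin named for Zfp345 lay in the processed pseudogene Gm14127 (chr2:150470082-150470231, minus strand) and held 17. The bin inside Zfp442, annotated as a promoter, held 21 (chr2:150412257-150412406, minus strand), and the Zfp64 bin in exon 5, which is coding sequence, held 38 (chr2:168935335-168935484, minus strand).
Gm14121: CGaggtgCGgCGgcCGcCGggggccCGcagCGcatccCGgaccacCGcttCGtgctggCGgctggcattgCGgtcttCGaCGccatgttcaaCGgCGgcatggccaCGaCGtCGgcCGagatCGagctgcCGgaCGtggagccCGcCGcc
Gm14127: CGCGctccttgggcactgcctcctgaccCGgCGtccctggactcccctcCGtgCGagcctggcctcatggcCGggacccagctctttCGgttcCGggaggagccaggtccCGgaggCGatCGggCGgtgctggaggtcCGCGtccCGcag
Zfp442: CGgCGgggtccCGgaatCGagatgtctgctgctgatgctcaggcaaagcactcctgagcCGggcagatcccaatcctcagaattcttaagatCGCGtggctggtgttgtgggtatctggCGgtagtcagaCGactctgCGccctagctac
Zfp64: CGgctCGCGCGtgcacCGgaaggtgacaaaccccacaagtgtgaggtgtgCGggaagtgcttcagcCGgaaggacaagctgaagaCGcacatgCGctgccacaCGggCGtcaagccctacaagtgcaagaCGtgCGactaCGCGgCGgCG

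The first comparison asks how H3K9me3 at these genes changes between 3 and 8 weeks in offspring of control dams. A bin was called when the deposited FDR was under 0.05, and a positive change means more H3K9me3 at 8 weeks. In control females 6 of 247 member bins were called (2.43%), against 2.72% of all bins, and in control males 25 of 303 (8.25%), against 4.41%. Among peaks of a single bin the calls were 0 in females and 3 in males. The share of all such peaks that was called is not given here, so these counts cannot be set against a background. Of the female calls 5 were higher at 8 weeks and 1 lower, where 1.49% and 1.23% of all bins were higher and lower. In males 18 were higher and 7 lower, where the background was 2.42% and 1.99%. The female share was thus near that of all bins and the male share was above it, mainly among bins that gained the mark. The calls fell on 4 genes in females and on 16 in males, 13 with a higher bin and 5 with a lower one, Zfp64 and Zfp618 having both. Most members were not called, with a median log2 change of -0.04 in females and 0.03 in males beside -0.03 and -0.05 for all bins. The middle 50% of members spanned -0.41 to 0.35 in females and -0.42 to 0.48 in males.

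**Figure D1:**
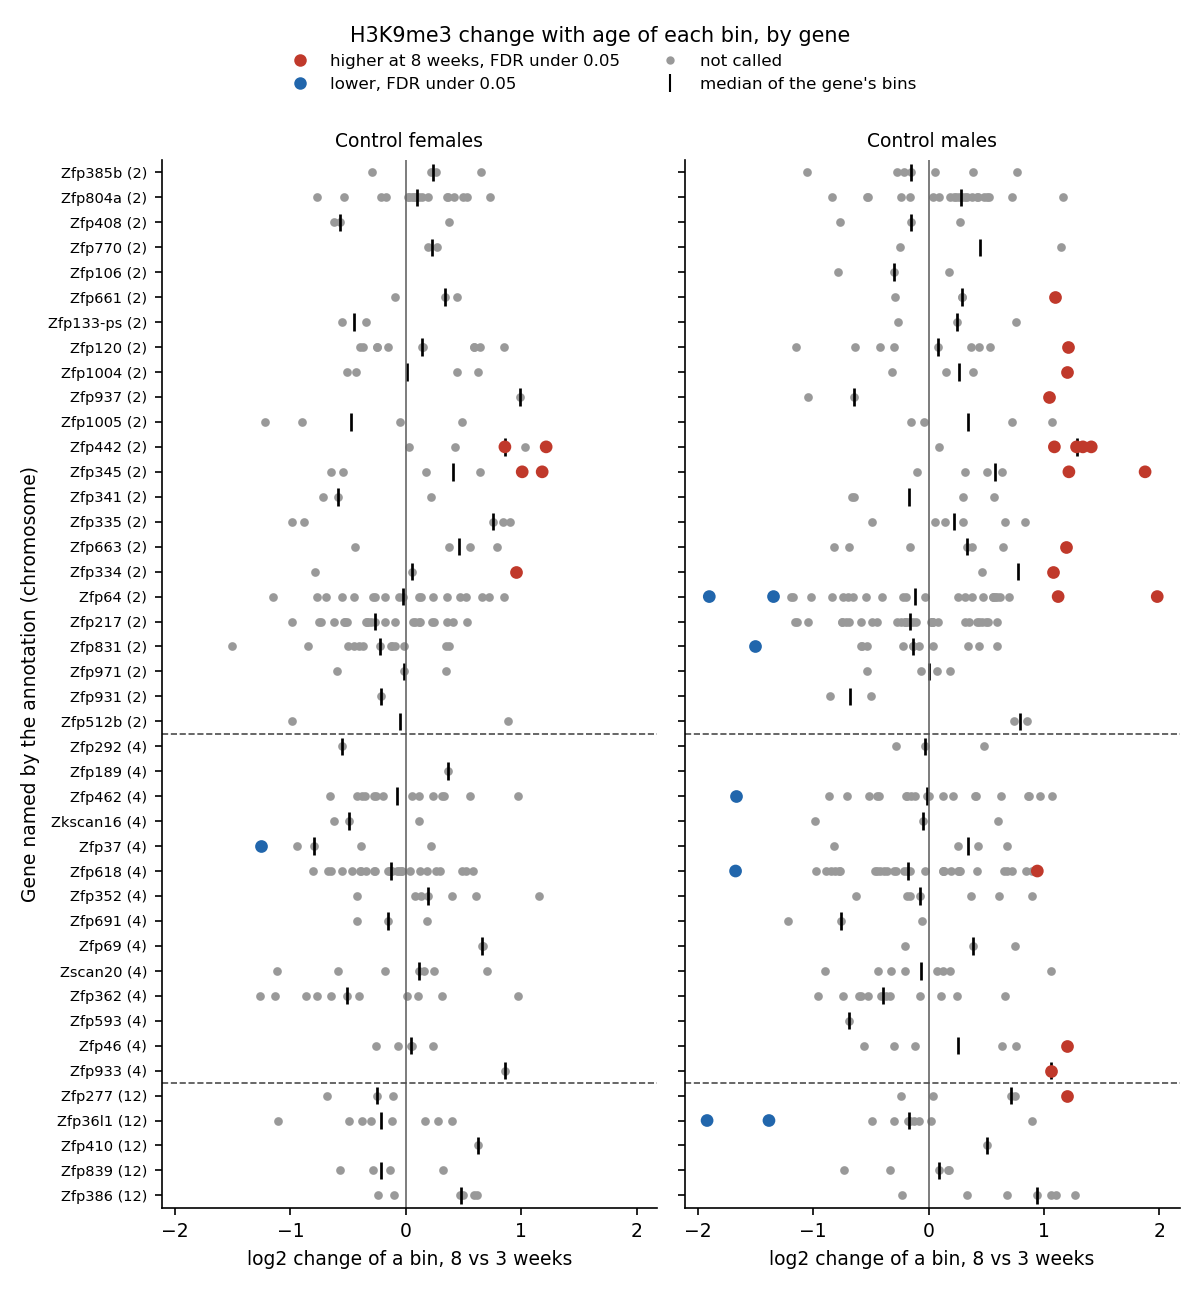
Log2 change in H3K9me3 between 3 and 8 weeks (x axis) of every bin named for each zinc finger gene (y axis, with its chromosome), control females and control males in separate panels. Each point is 1 bin, red where higher and blue where lower at FDR under 0.05 and grey otherwise, and the vertical tick is the median of the gene's bins. Called bins sit to the right for Zfp442 and Zfp345 in both sexes, and on both sides for Zfp64 in males.

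The gains that both sexes shared were all on chromosome 2. Females and males were tested on separately made bins, and 115 pairs of member bins overlapped by at least 50% of each. In 4 of these pairs both bins were called, and all 4 were higher at 8 weeks, where over all 54633 pairs 390 were called in both sexes and 365 of them were higher in both. The bin in Gm14121, named for Zfp345, rose by 1.01 on the log2 scale (SE 0.27, FDR 0.0138) in females and by 1.88 (SE 0.28, FDR 6.23e-08) in males, with 4 livers per group here and throughout. The bin in Gm14127, also named for Zfp345, rose by 1.18 (SE 0.24, FDR 0.000406) in females and by 1.22 (SE 0.26, FDR 0.000958) in males. These bins flank Zfp345, a KRAB zinc finger gene, and neither is part of it. The Zfp442 bin annotated as a promoter rose by 0.86 (SE 0.22, FDR 0.0115) in females and by 1.34 (SE 0.25, FDR 5.23e-05) in males. The last exon of Zfp334, which encodes its fingers, rose by 0.95 (SE 0.21, FDR 0.00157) in females and by 1.08 (SE 0.25, FDR 0.00242) in males. Since the tables give no error, each SE is an approximation worked back from a bin's change and its p.

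Of these, the Zfp334 and Zfp442 bins, and in females the Gm14127 bin, were also among the retained bins of highest average signal. The Gm14121 bin, at 13.5 CPM in females and 12.3 CPM in males, was not among the 5 highest members of either sex. Among the 72375 full-length bins of the female table, Zfp334 ranked 14 by average signal, at 27.9 CPM, and among the 85029 of the male table it again ranked 14, at 24.2 CPM. Zfp442 ranked 37 in females and 31 in males, at 22.2 and 19.8 CPM. The Gm14127 bin ranked 132 in females at 18.0 CPM. In males the exon 5 bin of Zfp64 came next, ranked 57 at 17.8 CPM. An intron bin of Zfp120 ranked 209 in females and 146 in males, at 16.8 and 14.8 CPM. It was not called, with a log2 change of 0.59 (FDR 0.187) in females and 0.43 (FDR 0.433) in males. An exon bin of Zfp64 ranked 409 in females at 15.0 CPM (log2 change 0.72, FDR 0.102), and in males a bin named for Zfp1005 ranked 231 at 13.3 CPM (0.72, FDR 0.105). High signal thus did not always go with a call.

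Zfp64 held the largest gain among the members and opposite changes within one locus. It encodes a C2H2 transcription factor. Its exon 5 bin rose by 1.98 (SE 0.27, FDR 1.49e-09) in males. The overlapping female bin had a change of 0.85 (FDR 0.0635), just outside the threshold. A second male bin in intron 5 rose by 1.12 (FDR 0.0319), while bins 3′ of the gene at chr2:168890819-168891319 and chr2:168851553-168851912 fell by 1.90 (FDR 0.00940) and 1.34 (FDR 0.0372). The median over its 26 male bins was -0.11, so that the gene as a whole did not shift in 1 direction.

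Of the other gains in males some lay in the named gene and others in no gene or in a pseudogene. The finger exon of Zfp46 rose by 1.20 (SE 0.29, FDR 0.00355), where the overlapping female bin stood at 0.24. Zfp663 rose by 1.19 (SE 0.31, FDR 0.00990), with 0.79 in females, in a bin that the deposited annotation places in a 3′ UTR and GENCODE in coding sequence. Exon 6 of Zfp661 rose by 1.09 (SE 0.31, FDR 0.0196). These 3 genes and Zfp334 belong to the KRAB zinc finger family. Introns of Zfp277 on chromosome 12 (1.20, FDR 0.0257) and Zfp933 on chromosome 4 (1.06, FDR 0.0392) also rose, and for Zfp933 the female change was 0.86. The bin of smallest change that was called was a distal one upstream of Zfp618 (0.94, FDR 0.0451), at -0.04 in females. Just outside the threshold in males were Zfp386 (1.27, FDR 0.0519) and Zfp770 (1.15, FDR 0.0609).

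Losses were fewer. None lay in a bin with a linker, but only 3.24% of female and 1.98% of male member bins held one, so little can be read from this. Only 1 member fell in females, a distal bin on the 3′ side of Zfp37, 19577 bp from the start site its annotation uses (-1.26, SE 0.35, FDR 0.0265). It had an average log2 CPM of 2.82, above the median of 2.65 of all bins. The nearest male bin of that peak, 1094 bp away, had a change of 0.43. In males an intron bin of Zfp462, whose product is known to interact with H3K9 methyltransferases, fell by 1.67 (SE 0.41, FDR 0.00572). Bins named for Zfp36l1 fell by 1.92 (FDR 0.0163) and 1.38 (FDR 0.0409), but they lay in the long noncoding RNA gene Gm36660, 74473 bp and 77989 bp from the Zfp36l1 start. Introns of Zfp831 (-1.50, FDR 0.0303) and Zfp618 (-1.67, FDR 0.0361) were also lower. The 7 bins lower in males had average log2 CPM of 1.59 to 2.21 (median 1.83), and the 18 higher ones 2.25 to 4.60 (median 2.99), so the ranges did not overlap, although the Zfp462 bin and 1 of the Zfp64 bins that fell lay above the median signal of all male bins. Just outside the threshold in females was a bin of Zfp831 at -1.51 (FDR 0.0632).

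**Figure D2:**
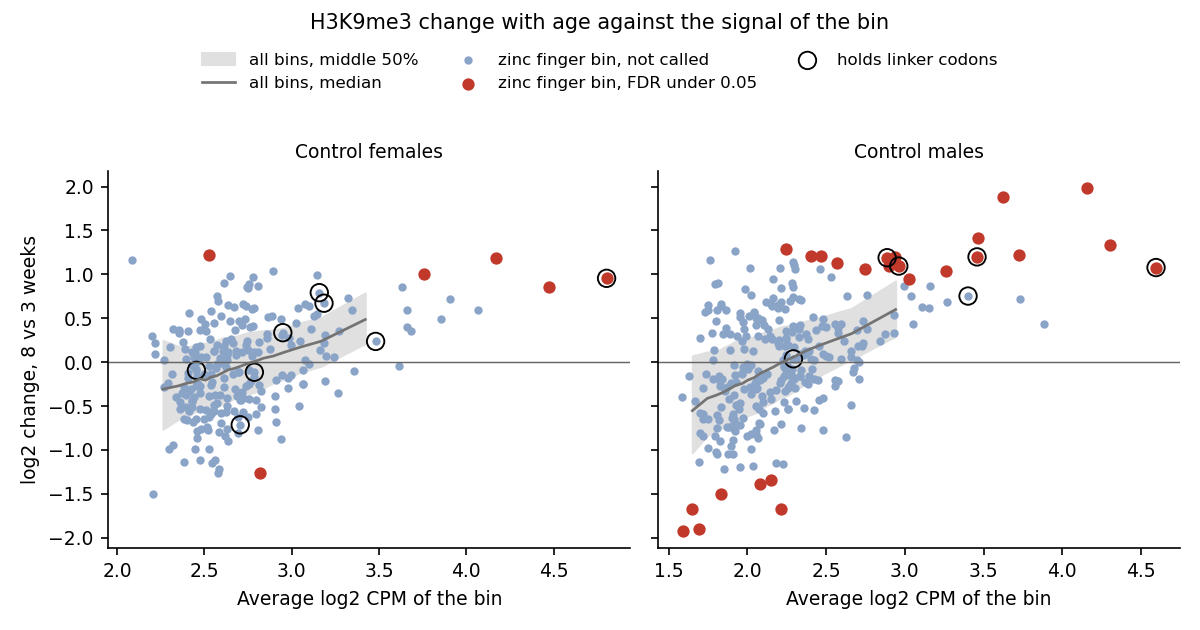
Log2 change between 3 and 8 weeks (y axis) against the average log2 CPM of the bin (x axis) for member bins in control females and control males, red where FDR was under 0.05 and ringed where the bin holds linker codons, with the median (line) and middle 50% (band) of all bins of the table. In males, bins that rose sit at higher signal than bins that fell.

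The change with age moved with signal over the members. The Spearman correlation between change and average log2 CPM was 0.35 over 247 bins in females and 0.45 over 303 bins in males, and with GC content 0.25 and 0.15. Bins share libraries, so these values describe the tables only. With bins at or below the median signal set aside and the FDR recomputed, 6 of 118 members were called in females (5.08%, against 4.14% of all such bins) and 25 of 172 in males (14.5%, against 6.54%). Of these calls 5 in females and 22 in males were higher at 8 weeks. In males 18 of the 25 calls had been higher before, so the 2 male sets differ although the count is the same. Lower bins called before at or below the median were left out by this step. With the trend of all bins over GC and signal taken out, 3 members were called in females (1.21%, against 0.981% of all bins) and 7 in males (2.31%, against 1.69%). The 3 in females had all been called before, namely distal Zfp442 (chr2:150399907-150400407), the Gm14127 bin and Zfp37. In males 5 had been called before, at Zfp64 exon 5, both bins named for Zfp345, Zfp442 (chr2:150393331-150393679) and Zfp462, and distal bins near Zfp804a and Zfp931 were added. The Zfp334 exon and the Zfp442 promoter were not called in either sex after this step.

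Position grouped the gains. A cluster of 6 genes, Zfp120, Zfp1004, Zfp937, Zfp1005, Zfp442 and Zfp345, spanned 531 kb at chr2:149995966-150526612. It held 31 member bins in each sex. In females 4 of them rose and none fell, 19 had a positive change and the median was 0.18. In males 9 rose and none fell, 21 were positive and the median was 0.38. Of the male gains there, only the Zfp442 promoter bin and the Zfp937 intron bin lay in the gene they were named for. The gains carried the names of 5 of the 6 genes. Beside the 4 bins at Zfp442, of which 150397399 had 2 near-identical copies elsewhere in the genome, and the 2 at Zfp345, they were Zfp1004 (1.20, FDR 0.00793), an intron of Zfp937 (1.04, FDR 0.0180) and a bin in the processed pseudogene Gm14140 named for Zfp120 (1.21, FDR 0.0255). At Zfp442 all 5 bins were positive in each sex, from 0.03 to 1.22 in females and from 0.09 to 1.41 in males, with medians of 0.86 and 1.28. Without this cluster 2 of the female calls and 16 of the male calls remained. These counts alone do not show whether the remaining members exceeded all bins. When the second cluster described below was left out too, 0.490% of the remaining female member bins were called, below the 2.72% of all bins. For the remaining male member bins the share was 5.45%, nearer to the 4.41% of all bins than with the clusters kept. The other bins within the same span, all named for 3300002I08Rik, had none called of 8 in females, with 2 positive and a median of -0.19. In males they had 1 higher and 2 lower of 9, with 6 positive and a median of 0.46, so the positive median of the span in males was not that of zinc finger bins alone.

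**Figure D3:**
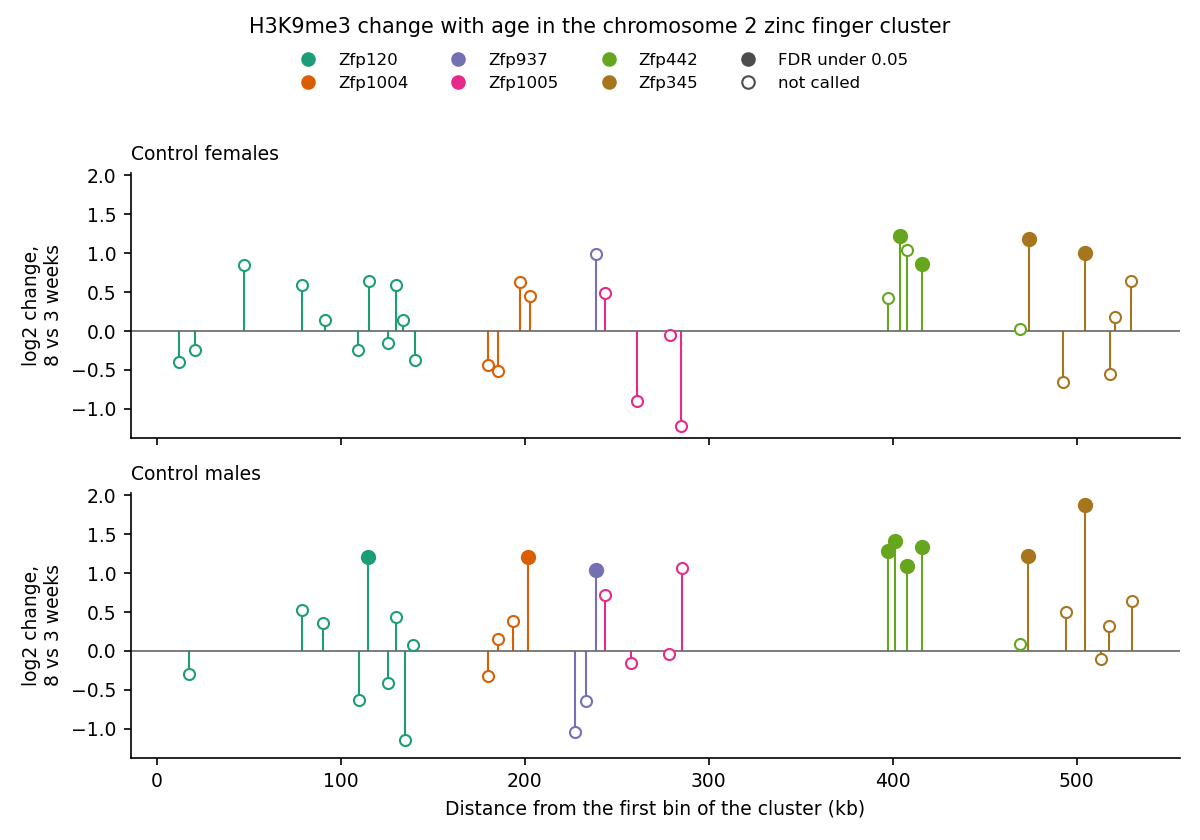
Log2 change between 3 and 8 weeks (y axis) of each member bin in the chromosome 2 cluster from Zfp120 to Zfp345 against its distance from the first bin in kb (x axis), control females above and control males below, coloured by gene and filled where FDR was under 0.05. The filled points of these member bins all lie above 0 in both sexes, and those of Zfp442 and Zfp345 gather at the right of the cluster.

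A second cluster, Zfp335, Zfp663 and Zfp334, covered 497 kb at chr2:164895775-165392759. It had 12 member bins in females, 1 of them called higher (8.33%), with a median of 0.46. In males it had 15, 2 called higher (13.3%), with a median of 0.33. Over the remaining genes 204 female bins gave 0 higher and 1 lower call with a median of -0.08 (0.490% called, against 2.72% of all bins). The 257 male bins gave 7 higher and 7 lower with a median of -0.05 (5.45% called, against 4.41%). Outside the 2 clusters the male share was thus closer to that of all bins, and the female share was below it. By chromosome, 14 of 171 members on chromosome 2 rose and 3 fell in males (9.94% called, against 3.87% of all bins of that chromosome). On chromosome 4 the share was 4.81%, against 4.55%, and on chromosome 12, where 1 of 28 bins rose and 2 fell, it was 10.7%, against 4.72%. In females 5 of 139 members on chromosome 2 were called (3.60%, against 1.78%), 1 of 86 on chromosome 4 (1.16%, against 2.08%) and 0 of 22 on chromosome 12 (against 2.30%).

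By number of bins, Zfp618 had 58 bins over both age tables, Zfp217 54, Zfp64 45, Zfp804a 40 and Zfp462 35. In males 2 of these genes had a gain, Zfp64 and Zfp618, and both also had a loss, as did Zfp462, while in females none of the 5 had a call. Zfp217, a transcriptional repressor, had no call in 23 female and 31 male bins, with medians of -0.26 and -0.16. Zfp804a had none either, although 14 of its 18 female and 17 of its 22 male bins were positive, with medians of 0.10 and 0.28. Zfp386 on chromosome 12 had the same lean, with 6 of 7 male bins positive and a median of 0.94, and a female median of 0.48, and no bin called. The lean of both genes was noticed in the values, and Zfp386 was chosen on them.

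Exons held the largest share of gains in both sexes. In males 7 of 28 exon bins of members rose and none fell (25.0%), where 4.63% of all exon bins of the table were called. In females 3 of 27 rose (11.1%, against 2.47%). Of these exon gains 2 of the 3 in females (Gm14127 and Gm14121) and 3 of the 7 in males (these and Gm14140) lay in pseudogenes beside the named gene, so that Zfp334 was the only finger gene exon that rose in females. Of 74 male intron bins 4 rose and 5 fell (12.2%, against 4.18% of all intron bins), while none of 55 female intron bins was called (against 2.56%). Of 136 male distal intergenic bins 5 rose and 2 fell (5.15%, against 4.60%). Promoters gave a single call in each sex, that of Zfp442, of 40 bins in females and 53 in males, where 2.90% and 4.25% of all promoter bins were called. Of the 18 bins that rose in males 10 lay in the gene they were named for, 3 in another gene and 5 in none. Linker sequence was more common in members than in other bins, in 3.24% of female and 1.98% of male member bins, against 0.110% and 0.105% of all bins. In males 4 of the 6 member bins with a linker rose (Zfp334, Zfp46, Zfp663 and Zfp661), while Zfp69, a KRAB gene, had a change of 0.75 (FDR 0.120) and Zfp277 0.04. Over the whole genome 33 of 155 linker bins rose in males and 4 fell, with a median of 0.35, so most linker bins that rose lay outside the members. In females 1 of 8 member bins with a linker rose, Zfp334, and 10 of 133 genome-wide rose and 5 fell, with a median of 0.06.

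The second question was whether age changes differed between females and males. Over the 115 pairs, 69 changed in the same direction (60.0%, against 64.7% of all 54633 pairs), and Pearson's r was 0.52 and Spearman's rho 0.47. Bins are not independent samples, and the 2 sexes share no library. In the chromosome 2 cluster from Zfp120 to Zfp345, 14 of 15 pairs had the same sign. The change was the more positive one in males in 71 member pairs and in 30470 of all pairs. An approximate test of each difference, from the changes and their SEs and adjusted over all 54633 pairs, called none of the 115 and no other pair, although 11 member pairs had an unadjusted p under 0.05, as did 3280 of all pairs. The smallest p among members was at Zfp64 exon 5, where the female change was lower by 1.13 on the log2 scale (adjusted p = 0.460). Of the 25 bins called in males, 14 had an overlapping female bin, 13 of these had the same sign and 4 were called, and 5 had no female bin in the peak. More calls in males therefore do not show that the sexes differ at these bins.

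**Figure D4:**
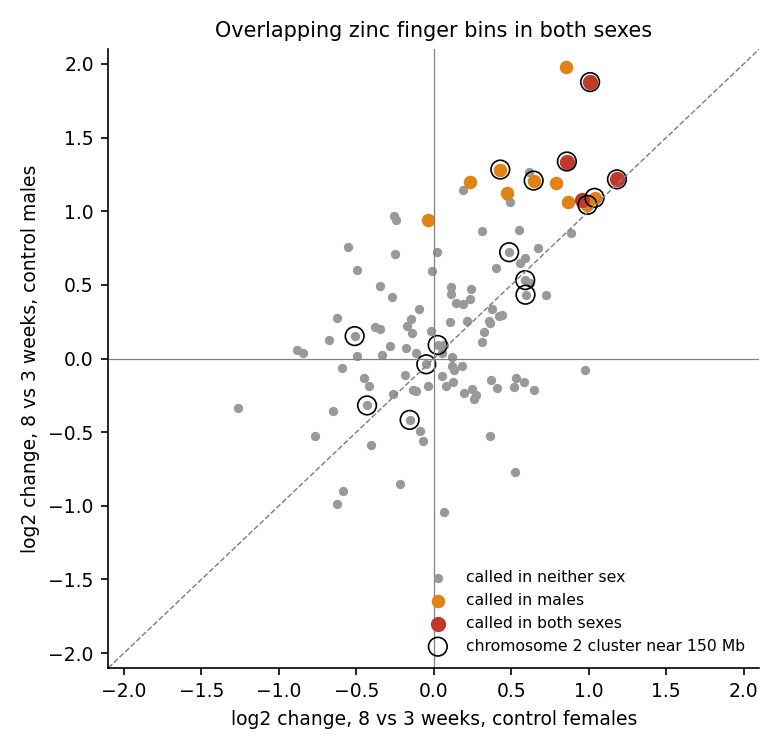
Log2 change between 3 and 8 weeks in control females (x axis) and control males (y axis) for the 115 pairs of overlapping member bins, coloured orange where called in males and red where called in both sexes at FDR under 0.05, ringed in the chromosome 2 cluster from Zfp120 to Zfp345, with the dashed line at equal change. The 4 pairs called in both sexes lie in the upper right.

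The third comparison asks whether MO altered H3K9me3 at these genes. The call rule was an unadjusted p under 0.001, since no bin of any of the 4 tables had an FDR under 0.05. No member passed it in females at 3 weeks (0.211% of all bins), males at 3 weeks (0.278%), females at 8 weeks (0.162%) or males at 8 weeks (0.114%). The exact test behind these p-values was the authors'. At an unadjusted p under 0.05, 17 members passed in females at 3 weeks (5.86%, against 7.72% of all bins) and 28 in males at 3 weeks (8.38%, against 8.83%). At 8 weeks 12 passed in females (5.08%, against 7.00%) and 13 in males (6.44%, against 6.50%). Every share was below that of all bins. Of the 28 in males at 3 weeks 21 were higher with MO and 7 lower, and all bins of that table leaned the same way, with 8094 higher and 5970 lower. In the other tables the split among members was 10 to 7, 5 to 7 and 6 to 7. The FDR of the smallest p among members was from 0.666 to 1, so the changes that follow are values and not calls.

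**Figure D5:**
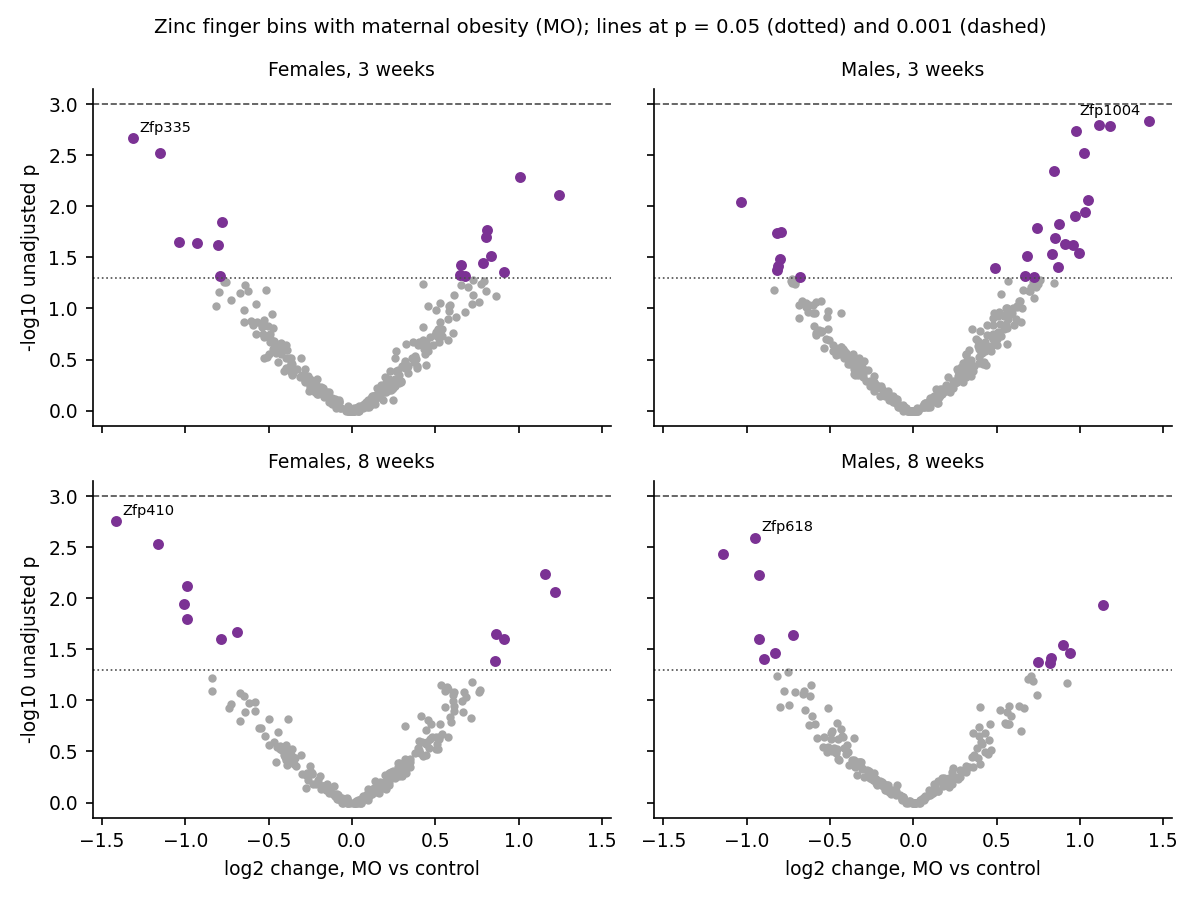
Log2 change with MO against control (x axis) and -log10 of the unadjusted p (y axis) of every member bin in the 4 MO tables, purple where p was under 0.05, with lines at p of 0.05 and 0.001 and the gene of smallest p named. No point passes the upper line in any panel.

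The 2 bins with the smallest p in each direction, at most 1 per gene, were taken from each table. At 3 weeks they were, in females, distal to Zfp335 (-1.31, exact test p = 0.00216), distal to Zfp64 (-1.15, p = 0.00298), distal to Zfp217 (1.01, p = 0.00519) and in exon 6 of Zfp64 (1.24, p = 0.00767). The overlapping male bin of that Zfp64 exon had a change of 0.17 (exact test p = 0.641). In males they were distal to Zfp1004 (1.41, exact test p = 0.00147), distal to Zfp217 (1.12, p = 0.00159), named for Zfp46 but in Tcea3 (-1.03, p = 0.00899) and in an intron of Zfp462 (-0.80, p = 0.0180). The Zfp217 bins of the 2 sexes were different ones, at chr2:170212224-170212690 and chr2:170165745-170166219. The Zfp462 bin has the same coordinates as the male one that was lower with age, and both comparisons use the control males of 3 weeks. At 8 weeks the females had the promoters of Zfp410 (-1.42, exact test p = 0.00175), a factor known to activate Chd4, and of Zfp335 (-1.16, p = 0.00292), a 3′ UTR bin of Zfp106 (1.16, p = 0.00575) and a bin near Zfp1004 (1.22, p = 0.00875). The males had a distal bin of Zfp618 (-0.95, exact test p = 0.00254), the promoters of Zfp386 (-1.14, p = 0.00369) and Zfp593 (1.14, p = 0.0115), and that of Zfp335 (0.90, p = 0.0290). The Zfp335 promoter thus had opposite signs in females and males at 8 weeks. The female change minus the male one was -2.06 (SE 0.57), and the same test of differences, adjusted over 49276 pairs, gave 0.526.

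Bins that passed an unadjusted p under 0.05 in more than 1 table were too few to read a recurrence from. Of 156 overlapping pairs of member bins at 3 and 8 weeks in females, 5 passed at 3 weeks and 7 at 8 weeks, and 2 passed at both ages (40% of the first and 28.6% of the second, against 6.47% and 6.49% over all 76657 pairs). Of 139 pairs in males 7 passed at each age and none at both, where 5.88% and 7.27% did over all pairs. Between females and males it was none of 114 pairs at 3 weeks, with 6 and 4 passing (9.24% and 7.93% over all pairs), and 1 of 103 at 8 weeks, with 5 and 7 passing (7.03% and 7.78% over all pairs).

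The partners of KRAB zinc finger proteins were listed as 26 genes, among them Trim28, Setdb1 and the H3K9 methyltransferases. With age, 24 of them had 94 bins in females, of which 2 rose and 2 fell (4.26%, against 2.72% of all bins), and 22 had 99 bins in males, again with 2 higher and 2 lower (4.04%, against 4.41%). The male share was thus no higher than that of all bins. In females the promoters of Atrx, a chromatin remodeller (1.56, FDR 1.17e-05), and Suv39h1, an H3K9 methyltransferase (1.18, FDR 0.00174), rose. Both lie on chromosome X, where 13.7% of all 6366 female bins rose. An exon of Morc2a (-1.41, FDR 0.00406) and a bin 5′ of Morc3 in an intron of another transcript (-1.40, FDR 0.0159) fell, both genes encoding ATPases that act in silencing. In males the promoter of Mphosph8, a reader of the mark (1.38, FDR 0.0278), and a bin named for Hdac2 but in an intron of another gene (1.35, FDR 0.0374) rose, and the promoter of Atf7ip, a partner of SETDB1 (-1.02, FDR 0.0385), fell. So did a bin named for Dnmt1, the maintenance DNA methyltransferase (-1.40, FDR 0.0422), which lies upstream of its start and is annotated as a 3′ UTR. No bin was named for Trim28 or Setdb1 among these calls. With MO only that Dnmt1 bin passed p under 0.001, in males at 3 weeks (-1.44, exact test p = 0.000330, FDR 0.519).

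Not all zinc finger genes of these chromosomes could be seen. The GENCODE release used here has 68 genes that meet the name rule on them, of which 41 had a bin in some table and 27 had none, 18 of these on chromosome 4. The members Zfp1004 and Zfp1005 are named Gm14139 and Gm14124 in that release and so are not among the 68. Other zinc finger genes that bear another name there would be missed as well. A run of 17 genes at chr4:145510759-147809788 and one of 4 at chr2:175372436-175931100 held no bin of any gene in any of the 6 tables. In these spans 18.8% and 17.9% of the bases are unknown in the assembly. Of tiles of 501 bases laid every 10 kb where no base is unknown, 163 of 187 (87.2%) and 46 of 46 (100%) had a near-identical copy elsewhere, against 20 of 54 (37.0%) in the cluster from Zfp120 to Zfp345 and 0 of 50 in that from Zfp335 to Zfp334. How much copy number and mapping filters took part in the lack of bins was not tested.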

How the data were processed

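Per the paper's methods, the authors aligned reads with BWA to mm10 (GRCm38), called broad peaks with MACS2, dropped blacklisted regions, merged peaks over conditions within a sex, split long peaks into bins, counted reads with featureCounts, tested bins with edgeR's exact test and annotated them with ChIPseeker. The deposited tables give, for 1 retained bin per peak, a log2 change and average log2 CPM and the authors' p-value and FDR. How that bin was chosen is not given in the sources used here, and it can differ between tables. Counts per library were not used here. The sign of age changes was turned so that positive is higher at 8 weeks.

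Members, gene lists and tests were chosen with earlier results of these data known. Standard errors were approximated from change and p. Named bins were, by rule, the 6 smallest FDR values per direction with age and the 2 smallest p per direction with MO, 1 per gene, those called in both sexes, the 5 genes with most bins, the 5 highest-signal bins and called cofactor bins. The other called members, the bins just outside the FDR threshold and Zfp386 were named after their values were seen. Clusters were runs of at least 3 member genes with neighbouring bins under 500 kb apart. Near-identical copies were sought with BLAST 2.17.0 (word size 64, 95% identity over 90% of the bin). The bin-by-bin scripts were tested on simulated data. Alternatives were other FDR, p and change thresholds, readjustment over the deposited bins, signal filters, gene counts, gene parts, single-bin peaks, removal of the GC and signal trend and other overlap rules. Leaving out the chromosome 2 cluster or the bins with near-identical copies was added after seeing the data. Python 3.11.15, numpy 2.4.6, pandas 2.3.3, scipy 1.17.1 and matplotlib 3.10.9 were used.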

Additional observations from a re-analysis of the deposited data

How the results depend on the processing

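No paired analysis was possible because the deposited tables hold comparisons and no value for a single library, and for the same reason no liver could be left out in turn. In control females the 6 calls with age became 2 at FDR under 0.01, 13 at FDR under 0.1, 3 with the trend over GC and signal removed, 0 among peaks of a single bin and 2 without the chromosome 2 cluster from Zfp120 to Zfp345. In control males the 25 calls became 11 at FDR under 0.01, 7 with the trend removed, 3 among peaks of a single bin and 16 without that cluster, and they fell on 16 genes. Of these alternatives only removal of the trend has a share of all bins beside it here. That was 1.21% of members against 0.981% in females and 2.31% against 1.69% in males. The other counts do not show whether members exceeded all bins. With MO, where no member was called, an unadjusted p under 0.01 was met at 3 weeks by 4 members in females (1.38%, against 1.76% of all bins) and 8 in males (2.40%, against 2.07%), and at 8 weeks by 5 (2.12%, against 1.51%) and 3 (1.49%, against 1.32%). The 4 pairs called in both sexes became 0 when identical coordinates were asked for. For the single-bin peaks, fewer bins were tested, and the cause of the lower counts was not tested otherwise. The other alternatives left the counts within 1.5 times, among them adjustment over the deposited bins alone (6 in females and 29 in males). The median change of members ranged from -0.11 to 0.15 in females and from 0.02 to 0.23 in males, so the sign of the female median depends on the setting. Depth per library is unknown, which limits what can be said of weakly marked bins.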

Other observations

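One peak of the chromosome 2 cluster, upstream of Zfp937 and named for Zfp1004, had a positive change with MO in each of the 4 tables. It was chosen after its values were seen, and the tables hold different bins of it, at chr2:150196839-150197339 in females, and in males at chr2:150197895-150198395 at 3 weeks and chr2:150196895-150197395 at 8 weeks. The log2 change was 0.91 (exact test p = 0.0439) in females and 0.74 (p = 0.0165) in males at 3 weeks, and 1.22 (p = 0.00875) in females and 0.21 (p = 0.706) in males at 8 weeks. The FDR of these values was 0.922, 0.842, 0.947 and 1, so none is a call. The bins of the peak were 78.4% to 91.6% soft-masked repeat sequence. With age the bin at chr2:150197895-150198395 rose in control males (1.20, FDR 0.00793), and the female table holds another, at chr2:150198839-150199273, with a change of 0.45 (FDR 0.627). The 3-week and 8-week control livers enter both kinds of comparison.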
